A study of Homo sapiens with 10 samples.

Results

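The data described here are the SMARCB1 and BRD9 peaks around 4 class 3 semaphorin genes, SEMA3C, SEMA3E, SEMA3A and SEMA3D, on the long arm of human chromosome 7 (band q21). The stretch is chr7:79900000-85000000 of the hg19 build, 5.1 Mb long, and holds 2840 of the 543439 peaks in 8 CUT&RUN peak lists. Each gene was taken with 200 kb on either side, called its zone below. The interval was chosen because 2 of the 5 highest-scoring SMARCB1 regions of the genome lie in it, so its SMARCB1 values describe that choice and were not tested. The cells were G401, an established human rhabdoid tumour line labelled SMARCB1(-/-), in which doxycycline induced either GFP, as the control, or SMARCB1. In CUT&RUN an antibody brings a nuclease to the chromatin bound by its target, and the released fragments are sequenced. BRD9 was profiled with a rabbit polyclonal antibody in 3 samples of GFP-induced and 3 of SMARCB1-induced cells, and SMARCB1 with a rabbit monoclonal antibody in 2 samples of SMARCB1-induced cells. The SMARCB1 sample of GFP-induced cells and the IgG sample were not analysed here as lists of their own.

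Class 3 semaphorins are secreted guidance proteins. Most bind neuropilin receptors (NRP1 and NRP2) that signal with plexins of the A family (PLXNA1 to PLXNA4), whereas SEMA3E binds the plexin PLXND1 directly. SEMA3A is the classical repellent of growing axons, SEMA3C and SEMA3D act in heart and vessel development, and SEMA3E acts on endothelial cells. SMARCB1 is a core subunit of the canonical BAF and PBAF forms of the SWI/SNF chromatin remodelling complex. BRD9 belongs to a different form, the non-canonical BAF complex, which contains no SMARCB1. The genes lie in the order SEMA3C, SEMA3E, SEMA3A, SEMA3D, and RefSeq (GRCh38.p14) places HGF, CACNA2D1 and PCLO between SEMA3C and SEMA3E. Exon positions and the positions of the neighbouring, receptor and other class 3 genes on hg19 were not used here.

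In hg19, SEMA3C spans chr7:80371854-80548667, SEMA3E chr7:82993222-83278479, SEMA3A chr7:83587659-83824217 and SEMA3D chr7:84624869-84751247. RefSeq reads SEMA3C, SEMA3E and SEMA3D from the minus strand, and SEMA3A was taken to run the same way, so the start of each gene is its upper end and "upstream" means higher positions. The RefSeq GRCh38.p14 model of SEMA3A is longer than the span used here and includes predicted transcripts, so positions called upstream of SEMA3A refer to the shorter span. The RefSeq span of SEMA3D in that build also differs from the one used here, by 65.1 kb. What is said below of its start and upstream flank refers to the hg19 span, and its promoter is not shown for that reason. The zones of SEMA3E and SEMA3A share 90.8 kb.

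The promoters of SEMA3C and SEMA3E are shown because BRD9 lay at the first in cells of both kinds and within 500 bp of the second only in SMARCB1-induced cells. Each sequence is 300 bases from RefSeq (GRCh38.p14, minus strand, chr7:80919002-80919301 and chr7:83649090-83649389), from 250 bases before to 50 after the start, with every CpG in capitals.
SEMA3C: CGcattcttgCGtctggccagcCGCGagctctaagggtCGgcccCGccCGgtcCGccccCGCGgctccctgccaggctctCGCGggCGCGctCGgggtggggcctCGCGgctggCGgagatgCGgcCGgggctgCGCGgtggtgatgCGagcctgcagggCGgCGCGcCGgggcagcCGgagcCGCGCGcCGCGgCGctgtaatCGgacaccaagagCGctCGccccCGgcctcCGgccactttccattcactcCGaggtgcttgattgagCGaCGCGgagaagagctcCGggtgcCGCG
SEMA3E: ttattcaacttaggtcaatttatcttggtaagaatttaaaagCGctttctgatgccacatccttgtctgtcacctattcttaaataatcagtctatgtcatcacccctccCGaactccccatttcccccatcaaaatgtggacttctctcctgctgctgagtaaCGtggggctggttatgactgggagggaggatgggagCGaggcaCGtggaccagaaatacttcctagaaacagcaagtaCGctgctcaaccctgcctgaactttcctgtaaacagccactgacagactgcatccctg
SEMA3C has 46 CpG dinucleotides and 75.7% G and C, and 2.89% of the 35116 promoters in the same table have as many CpGs. SEMA3E has 6 CpGs and 47.3% G and C, and 66.3% of promoters have as many. The median over all promoters is 14.0 CpGs. The letters of the AP-1 motif, TGANTCA, searched on both strands, are in neither window and in 7.71% of all promoters.

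At the SEMA3C start, a BRD9 peak lay within 500 bp in every list. Its density was 3.99, 3.56 and 3.12 RPKM in GFP-induced cells and 3.52, 4.07 and 3.29 RPKM in SMARCB1-induced cells, so the groups overlapped. RPKM is the reads in a peak per kilobase of peak and per M library reads. The called peak was wider after SMARCB1 induction, 1920, 1988 and 2033 bp against 636, 325 and 1286 bp. At SEMA3E, no GFP list had a peak within 500 bp of the start, and the nearest lay 2.59 to 6.83 kb away. All 3 lists of SMARCB1-induced cells had one, at 4.18 RPKM ± 0.329 (SD, n = 3). At SEMA3A, all 3 lists of SMARCB1-induced cells again had a peak within 500 bp, at 4.60 RPKM ± 0.485 (SD, n = 3), while the nearest GFP peak was 539 to 543 kb away. At SEMA3D no BRD9 list had a peak within 500 bp of the start used here, which RefSeq may place elsewhere. In SMARCB1-induced cells the nearest lay 19.4 to 50.4 kb inside the gene. SMARCB1 peaks covered all 4 starts in both lists, with mean densities of 2.46 RPKM at SEMA3C, 2.73 at SEMA3E, 2.75 at SEMA3A and 1.77 at SEMA3D.

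The BRD9 libraries held 10.1 to 13.9 M reads and the SMARCB1 libraries 59.7 and 64.2 M reads, as computed from the deposited counts and densities. The BRD9 lists held 35252 to 46448 peaks each. Every BRD9 list was scored against the same control library of 23.1 M reads, and both SMARCB1 lists against another of 49.6 M reads. The deposited names call the SMARCB1 control GFP, so SMARCB1 peaks were scored over it, and the BRD9 control is not named. The control density within BRD9 peaks of the interval was 0.839 RPKM ± 0.148 (SD, n = 3) for GFP lists and 0.990 ± 0.0615 for SMARCB1-induced lists, above the 0.330 RPKM that an even spread over the genome would give. Its part in the BRD9 results was not tested. Within SMARCB1 peaks of the interval the control density averaged 0.366 RPKM.

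SMARCB1 peaks covered most of each of the 4 gene bodies. They covered 35.2% and 42.0% of the interval in the 2 lists, against 4.90% and 6.44% of the genome. SEMA3C was covered along 98.9% and 99.8% of its body, SEMA3D along 76.5% and 87.9%, SEMA3A along 65.5% and 74.3%, and SEMA3E along 61.7% and 69.6%. The order of the 4 genes was the same in both lists, though the ranges of SEMA3A and SEMA3E overlapped between lists. The peaks that made up this cover numbered 8 and 3 in the body of SEMA3C, 28 and 25 at SEMA3D, 68 and 69 at SEMA3A and 99 and 70 at SEMA3E. Over whole zones the covered length was 264 and 292 kb at SEMA3C, 262 and 308 kb at SEMA3E, 349 and 400.8 kb at SEMA3A, and 188 and 230 kb at SEMA3D.

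The density of SMARCB1 ordered the zones differently from their covered length in kb. It was 2.75 and 3.13 RPKM over the peaks of the SEMA3C zone, 2.23 and 2.41 at SEMA3D, 1.86 and 2.04 at SEMA3E, and 1.74 and 1.92 at SEMA3A. SEMA3C and SEMA3D lay above the other genes in both lists. SEMA3E lay above SEMA3A within each list, though the ranges of SEMA3E and SEMA3A overlapped. SEMA3A thus had the largest summed covered length per zone at the lowest mean density.

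A SMARCB1 region here is a union of overlapping peaks that holds a peak of both lists, and there are 529 in the interval. Of these 41, or 7.75%, were at least 10 kb wide, against 1542 of 87773 (1.76%) in the genome. The widest SMARCB1 region of the genome, chr7:80347976-80541224, spans 193 kb and takes in nearly the whole body of SEMA3C up to 7.44 kb short of its start. It is at place 5 by mean rank of the deposited score, at a mean rank of 7, just inside the limit of 5 used to choose the interval, and the region at place 6, on chromosome 2, has a mean rank of 7.50. Its density was 3.18 and 3.86 RPKM. The region at place 4, chr7:84151451-84180376, is 28.9 kb wide with 4.22 and 5.22 RPKM, and lies outside the zones, 342 kb upstream of the SEMA3A start. In the body of SEMA3D, chr7:84623501-84657301, which takes in the far end of the gene, is 33.8 kb wide with 4.06 and 4.97 RPKM and ranks at place 14. The highest-ranked regions of the SEMA3E and SEMA3A zones were at places 180 and 204, with 2.32 and 2.67 RPKM at chr7:83304401-83321801 and 2.18 and 2.58 RPKM at chr7:83653251-83679126.

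**Figure D1:**
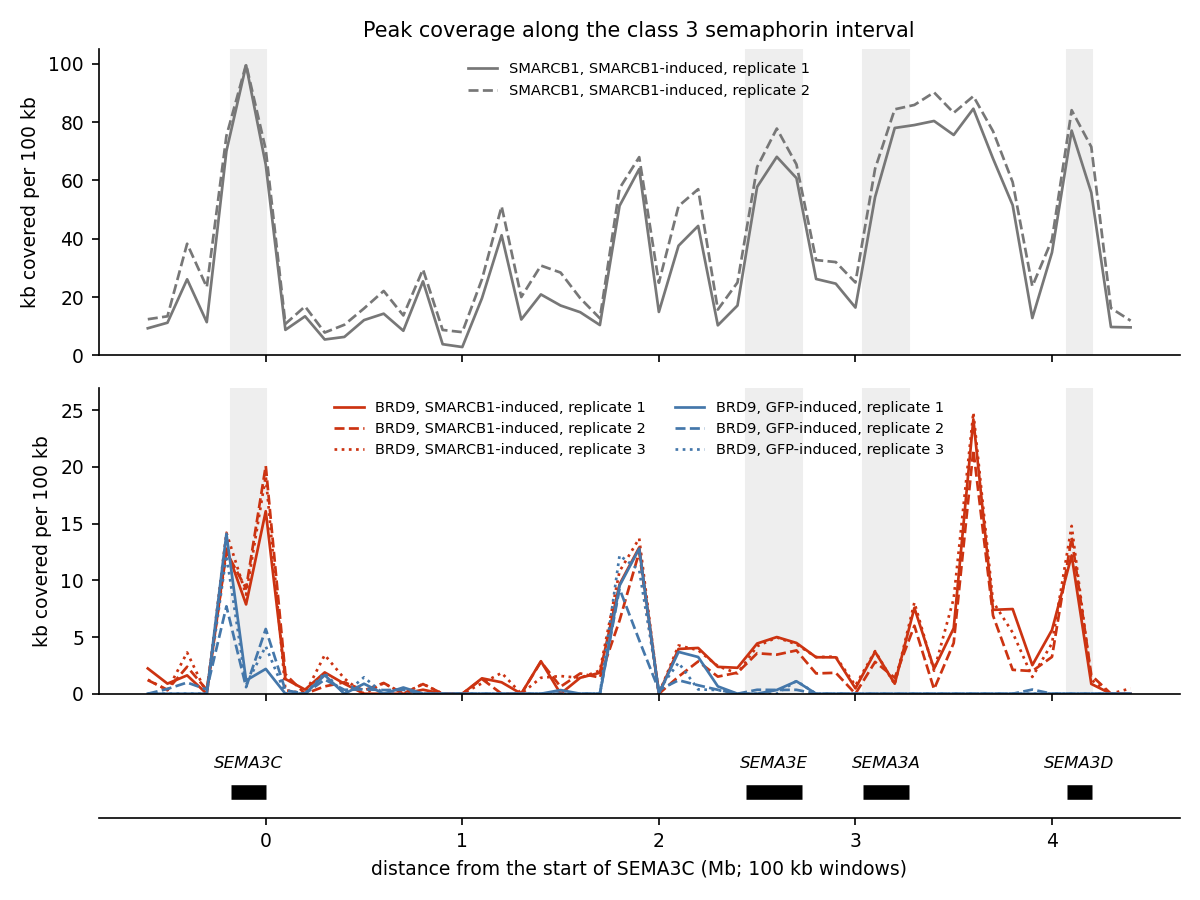
Covered length (kb per 100 kb window) of SMARCB1 peaks (top) and BRD9 peaks (bottom) along the interval, one line per list, against distance from the SEMA3C start (Mb, towards higher positions); grey bands and black bars are the 4 gene bodies. SMARCB1 covered SEMA3C nearly whole, and beyond 3 Mb BRD9 peaks were present in the 3 SMARCB1-induced lists and nearly absent from the 3 GFP lists.

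BRD9 covered about as much of the interval as of the genome in GFP-induced cells and several times more after SMARCB1 induction. In GFP lists its peaks covered 52.2, 36.8 and 48.5 kb of the interval (1.02%, 0.721% and 0.95%, against 1.09%, 0.686% and 0.973% of the genome). In SMARCB1-induced lists they covered 191, 167 and 205 kb (3.75%, 3.28% and 4.01%, against 1.17%, 0.946% and 1.01% of the genome). The groups did not overlap, and the ratio of means was 4.10. Density within the called peaks differed less, at 4.59 RPKM ± 0.936 in GFP lists and 4.17 ± 0.369 in SMARCB1-induced lists (SD, n = 3 each).

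Differences in BRD9 covered length were tested with limma on log2(bp covered per 100 kb + 100), in 100 kb windows over the genome with the 4 zones as added rows, and Benjamini-Hochberg adjustment over all of them. Of 17959 windows, 18.4% were called higher and 3.18% lower after SMARCB1 induction at an adjusted p under 0.05. In the interval 28 of 47 tested windows (59.6%) were called higher and 0 lower. At an unadjusted p under 0.05, 1 interval window was lower, and edgeR on reads in peaks called 0 lower. The median log2 difference was 3.25 in the interval and 0.49 over all windows, a general shift that was 0.35 after each list was scaled to its own total length. These medians depend on the settings. They were 1.15 and 0.13 with 1000 bp added, 2.82 and 0.0 with no filter on windows, and 5.27 and 0.43 with edgeR. Of the 47 interval windows, 24 had no peak in any GFP list, among them 20 of the 28 called higher, so their differences rest on the added 100 bp. In 30 of the 47 windows (63.8%) every SMARCB1-induced list lay above every GFP list, which held for 24.7% of windows in the genome. These counts rest on 3 samples a group, and no label says that replicates came from separate cultures, so p-values measure the spread between these samples only.

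Since the interval was chosen by SMARCB1, windows rich in SMARCB1 are a closer background, added after seeing the data and split at 40% coverage. Of the 925 windows of the genome that SMARCB1 regions cover to at least 40%, 47.6% were called higher. In the interval 15 of 21 such windows were called higher (71.4%), and so were 13 of the 26 windows with less SMARCB1 (50%). SMARCB1 regions covered 7.42% to 38.9% of those 13 windows, and over the genome 16.8% of windows under 40% were called higher.

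All 4 zones were called higher after SMARCB1 induction, but their levels in GFP-induced cells differed. There, SEMA3C carried BRD9, SEMA3E carried a few short peaks, and SEMA3A and SEMA3D carried next to none. The plot of covered length by list shows the SMARCB1-induced points above every GFP point for each gene.

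**Figure D2:**
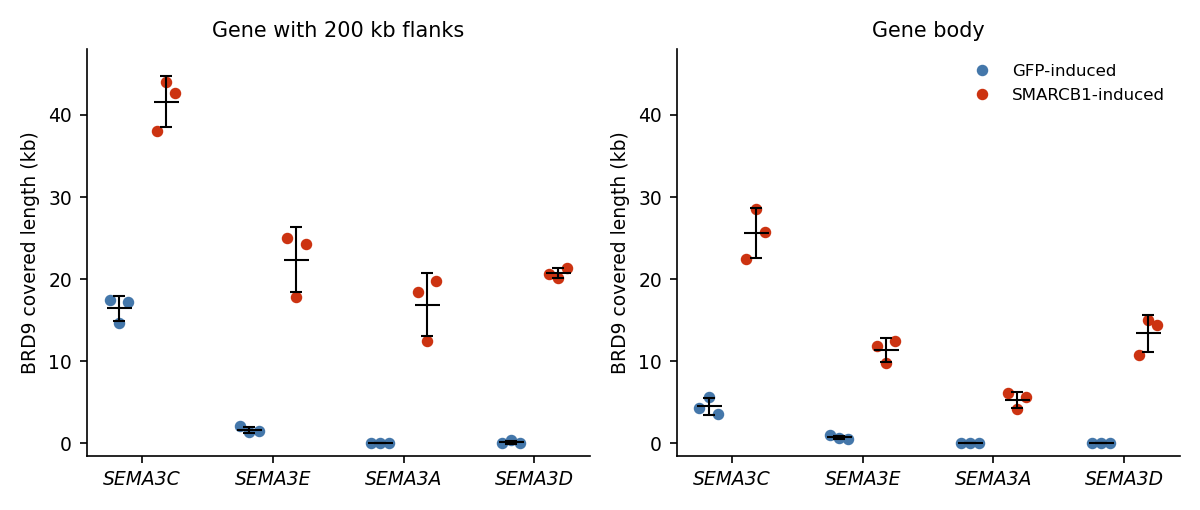
BRD9 covered length (kb) in each gene with 200 kb flanks (left) and in each gene body (right); points are single lists, bars the mean and SD of 3 lists (blue GFP-induced, red SMARCB1-induced). SEMA3A has 0 kb in all GFP lists, and SEMA3C is the only gene with more than 3 kb in a GFP list.

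In the SEMA3C zone, BRD9 peaks covered 17.5, 14.7 and 17.2 kb in GFP-induced cells and 38.1, 44.0 and 42.7 kb after SMARCB1 induction. The highest GFP list lay below the lowest SMARCB1-induced list by a wide margin. The log2 difference was 1.31 (SE 0.23, limma adjusted p = 0.0085), and the ratio of means was 2.53. In 31.6% of the 100 kb genome windows the difference was larger. The zone is 577 kb long, so its value averages over more sequence than those windows do. Within the gene body alone the covered length was 4.28, 5.62 and 3.60 kb against 22.5, 28.5 and 25.8 kb, a ratio of 5.69. Density in the zone's peaks was 4.25, 6.81 and 5.08 RPKM against 4.70, 5.10 and 4.59 RPKM, with overlapping groups.

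The difference at SEMA3C was uneven along the gene. It lay in the body and the upstream flank (0.307, 1.23 and 1.37 kb against 4.96, 5.90 and 4.33 kb). In the downstream flank, beyond the far end of the gene, the values were 12.9, 7.83 and 12.2 kb against 10.6, 9.58 and 12.6 kb, a ratio of 0.996 with overlapping groups. In steps of 25 kb from the start, BRD9 was highest at 25 to 50 kb, where it covered 6.23%, 16% and 10.9% in GFP lists and 33.7%, 42.8% and 41.7% in SMARCB1-induced lists. A second maximum at 125 to 150 kb was nearly absent from GFP lists (0%, 1.82% and 0%) and covered 18.9%, 21.1% and 23.9% after induction. SMARCB1 covered at least 95.4% of every step in both lists.

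Inside the 193 kb SMARCB1 region of SEMA3C, BRD9 peaks covered 10.7, 11 and 11.8 kb in GFP-induced cells and 29.1, 34.0 and 34.2 kb after SMARCB1 induction. In the SEMA3C zone, 5 BRD9 regions had a peak in all 6 lists. The densest, chr7:80505776-80507378, 42.1 kb inside the gene, had 4.38, 10.8 and 6.13 RPKM in GFP lists and 10.4, 9.82 and 9.36 RPKM in SMARCB1-induced lists, overlapping ranges. The widest, chr7:80350976-80357891, lies beyond the far end of the gene and had 6.32, 9.89 and 8.01 against 6.29, 6.94 and 5.81 RPKM. Of the regions with a peak in 3 of 3 SMARCB1-induced and 0 of 3 GFP lists, the highest-ranked were a pair upstream of the start, chr7:80571162-80572451 and chr7:80569476-80570834, at 5.12 RPKM ± 0.684 and 4.69 ± 0.595 (SD, n = 3).

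In the SEMA3E zone BRD9 peaks covered 2.09, 1.38 and 1.46 kb in GFP-induced cells and 25, 17.8 and 24.3 kb after SMARCB1 induction. Every SMARCB1-induced list exceeded every GFP list. The log2 difference was 3.31 (SE 0.37, limma adjusted p = 0.0014) and the ratio of means 13.6. The body contributed 0.973, 0.687 and 0.525 kb against 11.9, 9.77 and 12.5 kb, the upstream flank 0.464, 0.348 and 0.608 kb against 8.45, 4.71 and 7.54 kb, and the downstream flank 0.650, 0.348 and 0.326 kb against 4.66, 3.37 and 4.23 kb. The difference was thus present in all 3 segments, unlike at SEMA3C.

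Along SEMA3E, BRD9 was spread over many short peaks, at most 1.3 kb long in the body. The highest step, 100 to 125 kb from the start, was covered to 14.7%, 11.8% and 13.2% in SMARCB1-induced lists and to 1.34%, 1.35% and 0% in GFP lists. Density over the zone's peaks was 3.06 RPKM ± 0.136 in GFP lists and 3.85 ± 0.410 in SMARCB1-induced lists (SD, n = 3). The densest of the 3 highest-ranked gained regions, chr7:83314126-83315091, lies 36.1 kb upstream of the start, at 6.84, 6.33 and 4.44 RPKM. It sits in the SMARCB1 region at place 180, where BRD9 covered 1.90, 1.79 and 1.84 kb after induction and 0 kb in each GFP list.

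The SEMA3A zone held no BRD9 peak in any GFP list. After SMARCB1 induction the lists held 24, 20 and 31 peaks covering 18.4, 12.5 and 19.8 kb. Summed over the lists these were 75 peaks against 0, which is 25-fold the floor of 3 peaks set for a GFP count of 0. A site called in several lists counts several times in this sum. The log2 difference in covered length was 4.76 (SE 0.41, limma adjusted p = 5.6e-04), a value that depends on the added 100 bp because the GFP lists are at 0. Density over the zone's peaks in SMARCB1-induced cells was 3.69 RPKM ± 0.363 (SD, n = 3).

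Within SEMA3A, BRD9 peaks were sparse and SMARCB1 peaks extensive. The body held 6.08, 4.21 and 5.61 kb of BRD9 peaks after induction, and 4.13% ± 0.938 (SD, n = 3) of the length of SMARCB1 regions in the zone carried BRD9. The highest step, 150 to 175 kb from the start, was covered to 14.8%, 8.99% and 10.4%. It holds the gained region chr7:83654501-83655591, at 4.83, 5.12 and 5.11 RPKM, in the 25.9 kb SMARCB1 region at place 204. Upstream, SMARCB1 covered 78.6% and 87.5% of the flank, and BRD9 covered 8.64, 6.40 and 10.1 kb of it. The gained region chr7:83861687-83862658, 38.0 kb upstream, had 4.66, 5.86 and 4.44 RPKM.

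The SEMA3D zone held a single BRD9 peak in GFP-induced cells, of 369 bp in replicate 2, and none in the other 2 lists. After SMARCB1 induction 23, 25 and 23 peaks covered 20.6, 20.2 and 21.4 kb, the smallest SD of the 4 zones. The parts of the zone agreed less, with 13.4 kb ± 2.23 in the body and 7.33 ± 2.30 in the downstream flank (SD, n = 3). The peak ratio was 71.0, with peaks summed over the 3 lists of a group. A site called in several lists counts several times in it, so it is given without a measure of error. The log2 difference was 5.08 (SE 0.41, limma adjusted p = 5.1e-04), a value that depends on the added 100 bp because 2 GFP lists are at 0. It was 2.27 with 1000 bp added and 7.64 with edgeR on reads in peaks. Density over the zone's peaks was 3.90, 4.34 and 3.73 RPKM after induction.

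BRD9 at SEMA3D lay in the body (10.8, 15 and 14.4 kb) and the downstream flank (9.75, 5.17 and 7.07 kb). The upstream flank had no BRD9 peak in any of the 6 lists. The body had 2 maxima after induction, both away from the start used here. The step at 100 to 125 kb was covered to 28.1%, 35.9% and 37.2%, and the step at 50 to 75 kb to 13.4%, 17.6% and 18.5%, with 0% in every GFP list at both. The first falls in the SMARCB1 region at place 14, of which BRD9 covered 7.50, 9.94 and 9.76 kb. The 3 highest-ranked gained regions of the zone, chr7:84629367-84632276, chr7:84647693-84649862 and chr7:84642826-84643943, had mean densities of 4.58, 5.53 and 5.45 RPKM.

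**Figure D3:**
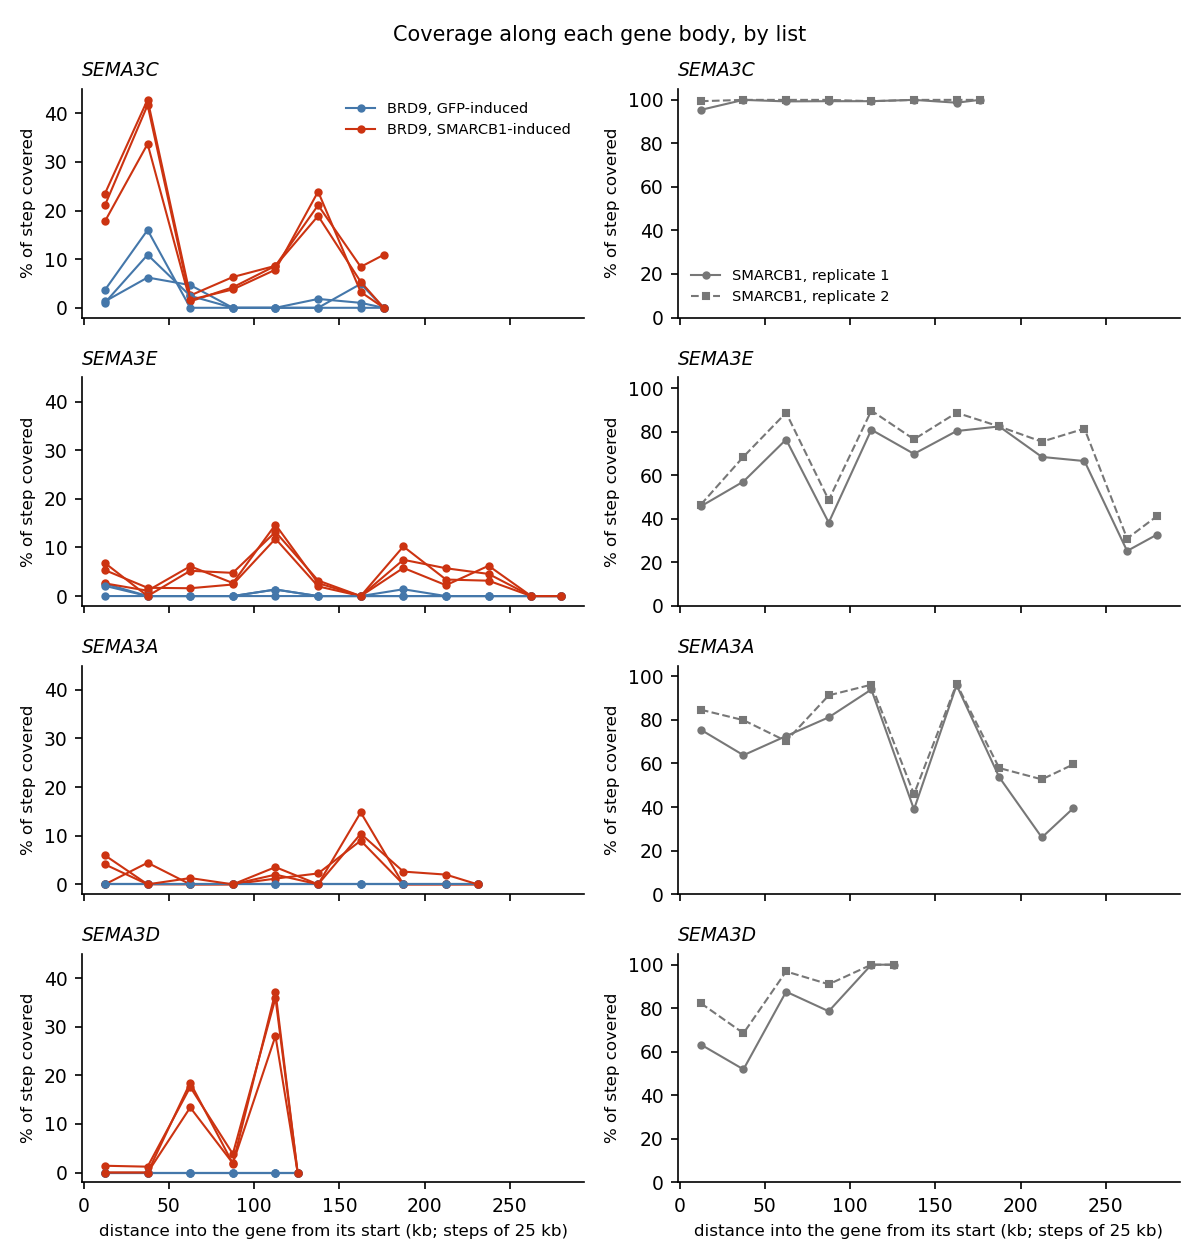
Percent of each 25 kb step of the gene body covered by BRD9 peaks (left; blue GFP-induced, red SMARCB1-induced, 3 lists each) and by SMARCB1 peaks (right, 2 lists), against distance from the gene start (kb); the last step of each gene is shorter. SEMA3C and SEMA3D show BRD9 maxima above 25% in the SMARCB1-induced lists, and SEMA3E and SEMA3A stay below 15%.

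Set against zone length, BRD9 after induction covered 6.60%, 7.63% and 7.41% of the SEMA3C zone, 3.91%, 3.83% and 4.07% at SEMA3D, 3.65%, 2.60% and 3.54% at SEMA3E, and 2.89%, 1.96% and 3.10% at SEMA3A. Within every list SEMA3C lay above the other zones, SEMA3D above SEMA3E, and SEMA3E above SEMA3A. The ranges of SEMA3E and SEMA3A over the lists overlapped. SEMA3C and SEMA3D were also first and second in SMARCB1 density, a description over 4 genes that were chosen by SMARCB1.

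Outside the zones, BRD9 in SMARCB1-induced lists covered 11.3%, 8.86% and 11.5% of the stretch between SEMA3A and SEMA3D, against 2.08%, 1.71% and 2.36% between SEMA3C and SEMA3E. The stretch between SEMA3A and SEMA3D held no BRD9 peak in any GFP list and 45.1, 35.5 and 46.1 kb of peaks after SMARCB1 induction. Summed over the lists these were 138 peaks against 0, or 46-fold the floor of 3 peaks used above. SMARCB1 covered 67.6% and 74.6% of the stretch. In the SMARCB1 region at place 4, BRD9 covered 9.78, 10.1 and 11.1 kb, which is 33.8%, 35.1% and 38.3% of its width. The gained region chr7:84176401-84179026 in it had 8.49, 7.55 and 6.26 RPKM, and chr7:84119453-84123107, 297 kb upstream of SEMA3A, had 4.83, 5.40 and 6.18 RPKM.

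Taken over the interval, the longest stretch without a BRD9 peak in any GFP list was 1.16 Mb, chr7:83285652-84445076. It runs from just upstream of SEMA3E across SEMA3A to the downstream flank of SEMA3D. SMARCB1-induced lists held 74, 60 and 91 peaks there, covering 66.8, 49.8 and 69.1 kb. A second such stretch, of 810 kb, chr7:81283451-82093376, between SEMA3C and SEMA3E, held 10, 8 and 14 peaks in SMARCB1-induced lists, covering 5.60, 5.59 and 6.60 kb. SMARCB1 covered 56.3% and 63.8% of the first and 17.8% and 25.4% of the second.

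Between the SEMA3C and SEMA3E zones, the ratio between groups was smaller than in any of the 4 zones, a contrast that was not itself tested. Its peaks covered 32.6, 18.9 and 29.8 kb in GFP-induced cells and 42.5, 35.0 and 48.3 kb after SMARCB1 induction, a ratio of 1.55 without overlap. The exact two-sided permutation test of 3 against 3 gave p = 0.1, the smallest it can give, here and for each of the 4 zones. Density was 4.18 RPKM ± 0.709 and 3.83 ± 0.310 (SD, n = 3 each).

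Peaks were also followed as BRD9 regions, each joining the peaks of the 6 BRD9 lists that overlap. A gained region had a peak in 3 of 3 SMARCB1-induced and 0 of 3 GFP lists, and a lost region the reverse. In the genome 6.85% of 119939 regions were gained and 1.04% lost. In the interval 92 of 416 (22.1%) were gained and 0 lost. Gained were 14 of 71 regions (19.7%) in the SEMA3C zone, 14 of 57 (24.6%) at SEMA3E and 10 of 43 (23.3%) at SEMA3A. In the SEMA3D zone 15 of 31 (48.4%) were gained, and in the rest of the interval 41 of 218 (18.8%). Regions of the shared flank were counted for both genes. All 14 regions with a peak in 3 of 3 GFP lists also had one in at least 1 SMARCB1-induced list, as did 8215 of 9461 such regions (86.8%) over the genome. With at least 2 of 3 lists required in place of 3, 12.6% of the genome's regions were gained and 5.70% lost, and in the interval 151 (36.3%) were gained and 9 (2.16%) lost.

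All 92 gained regions of the interval overlapped SMARCB1 regions, and so did all 10 BRD9 regions with a peak in all 6 lists. Over the genome 7880 of 8217 gained regions (95.9%) and 3339 of 5598 regions with a peak in all 6 lists (59.6%) did so. Of all BRD9 regions of any kind, 353 of 416 (84.9%) overlapped SMARCB1 regions in the interval, and 37.8% over the genome. Most BRD9 regions of this interval thus overlapped SMARCB1, gained or not. SMARCB1 regions cover 40% of the interval. The share of BRD9 covered length inside them was 71.4%, 85.3% and 82.5% in GFP lists and 95.7%, 98.6% and 96.7% in SMARCB1-induced lists, without overlap. The difference in means was 17.3 percentage points (exact two-sided permutation p = 0.1, the smallest 3 against 3 can give). Over the genome, where SMARCB1 regions cover 5.77%, the shares were 34.8% ± 11.2 and 69.2% ± 6.59 (SD, n = 3). The share in GFP lists was higher in the interval than over the genome, but so was the part covered by SMARCB1 regions. The interval was chosen by SMARCB1 and the shares are not adjusted for that cover, so this contrast is no result about BRD9.

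BRD9 peaks nevertheless covered a small part of the SMARCB1 regions. The BRD9 libraries were smaller, at 10.1 to 13.9 M reads against 59.7 and 64.2 M, and had another control. BRD9 binding too weak to be called can thus not be told from absence here, and its extent was not tested. Of their length in the interval, 1.77% ± 0.214 carried BRD9 in GFP lists and 8.91% ± 0.811 in SMARCB1-induced lists (SD, n = 3). By zone the mean shares in GFP and SMARCB1-induced lists were 5% and 14.8% at SEMA3C, 0.274% and 7.26% at SEMA3E, 0% and 4.13% at SEMA3A, and 0% and 9.21% at SEMA3D. Of the 529 SMARCB1 regions, 66 (12.5%) held BRD9 in all 3 SMARCB1-induced lists, with a median width of 8200 bp and density of 2.22 RPKM. The 376 without a BRD9 peak in any of those lists had medians of 1212 bp and 1.34 RPKM. Over the genome 13.5% of 87773 SMARCB1 regions held BRD9 in all 3 of those lists and 67.8% in none. With all widths pooled, the interval's 12.5% and 71.1% were near that background. BRD9 in all 3 GFP lists was held by 9 regions of the interval (1.70%), against 4.56% over the genome. The genome's median widths were 3200 and 1000 bp, a difference of the same direction. A wider region offers more room for a peak, and the comparison does not adjust for width. Among regions at least 10 kb wide the interval's share was lower than the genome's. There, 27 of 41 held BRD9 in all 3 SMARCB1-induced lists, against 1326 of 1542 in the genome. In all 3 GFP lists 5 of 41 did, against 710 of 1542.

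**Figure D4:**
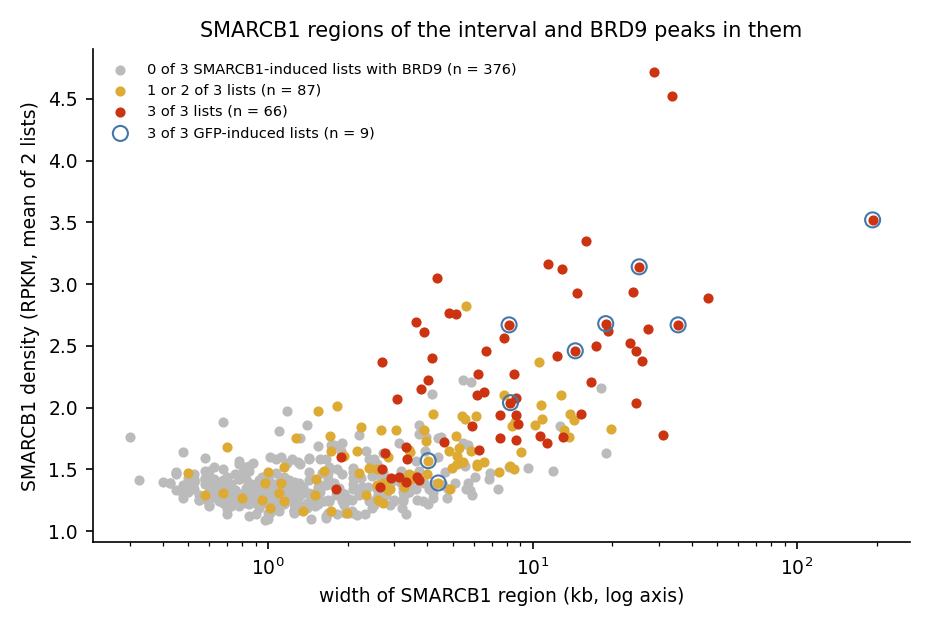
Width (kb, log axis) and SMARCB1 density (RPKM, mean of 2 lists) of the 529 SMARCB1 regions of the interval; each point is a region, coloured by how many of the 3 SMARCB1-induced lists have a BRD9 peak in it, and blue rings mark the 9 with BRD9 in all 3 GFP lists. The regions with BRD9 in all 3 lists lie towards the wide and dense end, and the 193 kb region of SEMA3C is the rightmost point.

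At the upper edge of the interval, GFP lists had long stretches without a peak on both sides. The next GFP peak beyond it lay at chr7:86155276-86155566 in replicate 1, with 3.24 RPKM, and the last peak inside in that list was at chr7:83281071-83281535, with 3.04 RPKM. SMARCB1 peaks next to the lower edge were short, 425 bp at 1.47 RPKM inside and 375 bp at 1.29 RPKM outside in replicate 1.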

How the data were processed

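CUT&RUN libraries of G401 cells were made with a CUTANA ChIC/CUT&RUN kit, and reads were handled with BWA 0.7.12-r1039, SAMtools and bedtools on hg19, per the submitters' processing notes. The peak caller is not given in the sources used here. Each deposited list holds peaks of 1 sample, with the deposited counts of sample and control reads per peak, the authors' RPKM (reads per kilobase of peak and per M library reads) and a deposited score, −log10 of the FDR. The control of the SMARCB1 lists is named GFP per the deposited names, and that of the BRD9 lists is not named.

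Peaks were taken as start up to but not including end. For each list, covered length, peak number, density and control density were computed in the interval, zones, gene bodies, flanks, 25 kb steps and 100 kb windows (Python 3.11.15, pandas 2.3.3). BRD9 covered length was tested with limma 3.58.1 (trend) on log2(bp per 100 kb + 100) over windows with a mean above 0; edgeR 4.0.16 on reads in peaks was an alternative. The script was tested on simulated data in which the changed windows had cover in both groups. Windows empty in the GFP lists only were not simulated. Regions joined peaks sharing at least 1 bp. Named regions were, per zone, up to 3 SMARCB1 and 3 gained regions by mean rank of score, up to 2 elsewhere, and those with peaks in all 6 lists as chosen after their values were seen. The members, interval and lists were chosen with earlier results of these data known. Samples were not treated as paired by replicate number in the main fit. Deviations of windows from their group mean correlated between same-numbered lists at 0.169, 0.0613 and 0.0152. Over all combinations of a GFP and a SMARCB1-induced list these correlations ranged from -0.153 to 0.169. Only number 1 correlated best with its own number.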

Additional observations from a re-analysis of the deposited data

How the results depend on the processing

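All 52 alternative values of the zone differences kept their direction and stayed past the threshold. The log2 difference ranged from 1.09 to 2.48 at SEMA3C, 1.77 to 4.09 at SEMA3E, 1.85 to 12.47 at SEMA3A and 2.27 to 7.64 at SEMA3D; the lowest came with a pseudocount of 1000 bp at each gene, and the highest from the gene body at SEMA3C and from edgeR elsewhere. The highest adjusted p was 0.040, at SEMA3C without SMARCB1-induced replicate 3. Leaving out each list gave 1.23 to 1.37, 3.22 to 3.46, 4.63 to 4.95 and 4.95 to 5.34 in the same order of genes. Windows called higher in the interval numbered 24 to 31 without single lists and 43 of smaller 50 kb windows; those lower numbered 0 to 1 without single lists, 1 after scaling by list length and 1 with 50 kb windows. Over the genome, windows called higher fell from 3303 to 2141 with edgeR and to 2050 with no filter on windows; those lower went from 571 to 361, 229 and, after scaling, 885, and to 1078 without GFP replicate 2. Gained regions numbered 92 to 125 and lost ones 0 to 6 without single lists. Lost regions were 6 without GFP replicate 2 and 4 without GFP replicate 3. Without a list the rule asks only for the lists that remain, which is looser and favours counts at or above those of the full set. Requiring at least 2 of 3 lists gave 151 and 9, at least 1 of 3 (added after seeing the data) 311 and 59, and the peaks at or above each list's median score 2 lost. The replicate block, which rests on a shared number only, gave 157 gained and 12 lost regions, a share difference of 17.3 points (exact sign-flip p = 0.250, the smallest it can give) and 30 higher windows, and kept every zone call (adjusted p = 0.028, 0.010, 0.0072 and 0.0071). The share difference was 13.1 to 20.1 points without single lists. Above the median score, SMARCB1 covered length was 257.4 kb at SEMA3C and 250.3 kb at SEMA3E. With all peaks but the gene body only, it was 175.7, 187.3, 165.4 and 103.9 kb at SEMA3C, SEMA3E, SEMA3A and SEMA3D, whose bodies are shorter than the zones. SMARCB1 density with all peaks was 3.45 RPKM in the SEMA3C body and 2.86 in the SEMA3D body. In the SEMA3D zone it was 2.46 above the median score. Single SMARCB1 lists gave 263.9 to 292.1, 262.3 to 307.9, 349.1 to 400.8 and 188.1 to 229.8 kb, and 2.75 to 3.13, 1.86 to 2.04, 1.74 to 1.92 and 2.23 to 2.41 RPKM. The causes were not tested. A BRD9 peak held at least 9 reads, so weaker binding is not in the lists.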
